A study of Mus musculus with 8 samples.

Results

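Matricellular proteins and matrix proteoglycans were taken as 10 secreted genes fixed by name, out of 19938 genes measured: the proteoglycans Vcan, Bgn, Dcn and Lum, the glycoprotein Fn1, and the matricellular or matrix-associated proteins Sparc, Thbs2, Fstl1, Postn and Tnc. All 10 were measured, each by 1 probe set. The proteoglycans consist of a core protein with attached glycosaminoglycan chains. Versican (Vcan) is large and binds hyaluronan, whereas biglycan (Bgn), decorin (Dcn) and lumican (Lum) are small leucine-rich proteoglycans that bind collagen fibrils. Fibronectin (Fn1) is a fibril-forming glycoprotein that cells grip through integrins. Matricellular proteins are secreted into the matrix but serve mainly to tune cell adhesion and growth factor signalling. In bone, osteoblasts and their stromal precursors make biglycan, decorin and Sparc (osteonectin), and in breast tumours versican, periostin and tenascin-C are classed mostly with the stroma.

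The study put a mouse stromal line of pre-osteoblastic character, MBA-15, together with a mouse mammary adenocarcinoma line, DA3, and asked how each changed the expression of the other. RNA was hybridised to 8 Affymetrix mouse gene arrays, 2 in each of 4 groups. For the co-cultured MBA-15 group, MBA-15 cells were plated first, DA3 cells were added onto the layer, and the fraction left after magnetic removal of EpCAM-bearing cells was used. For the co-cultured DA3 group, the EpCAM-bearing fraction of such cultures was used. MBA-15 alone and DA3 alone were the lines cultured separately as controls, and their array descriptions carry the word "mix" beside the sign of a fraction. The descriptions give 24 h for all 8 arrays, while the growth protocol names 24 or 48 h. Both lines were kept in the same serum-containing medium, and no drug or genetic change is named for any group. No label states whether the 2 arrays of a group stem from different cultures, and the p-values therefore measure only their spread, which may be technical. The descriptions also carry an assay number whose meaning is not given. Assay 3 covered every group once (array 2 of each, except array 1 of co-cultured DA3), assay 4 every group but co-cultured DA3 (array 1 of each), and assay 5 only array 2 of co-cultured DA3. Differences within assays 3 and 4 are therefore given beside the pooled ones.

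The 2 MBA-15 arrays labelled alone went against their label. Epcam, the epithelial surface protein used for the separation, was at 8.45 and 9.25 on these arrays, against 5.58 and 5.19 in co-cultured MBA-15, 9.57 and 9.46 in DA3 alone and 9.30 and 9.38 in co-cultured DA3 (log2 expression). Over 16 epithelial markers the mean log2 level was 7.97 and 8.47 on the MBA-15 arrays labelled alone, 5.07 and 4.90 in co-cultured MBA-15, 9.23 and 9.12 in DA3 alone, and 8.74 and 9.01 in co-cultured DA3. Over 15 stromal markers it was 7.69 and 7.75, 8.34 and 8.04, 5.05 and 5.07, and 6.14 and 5.65 in the same order. All 6 endothelial markers and 5 of 7 leukocyte markers lay below the lowest array median, 4.479, on all 8 arrays. The 2 doubtful arrays are called MBA-15 "labelled alone" throughout, and comparisons of the lines start from co-cultured MBA-15 against DA3 alone, the groups whose epithelial markers lay farthest apart. In such bulk RNA, fewer cells of a type and less RNA per cell cannot be told apart.

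Of the 10 genes, 6 had signal above the lowest array median on at least 7 of 8 arrays: Vcan, Bgn, Fn1, Sparc, Thbs2 and Fstl1. The remaining 4, Dcn, Lum, Postn and Tnc, lay below it on all 8 arrays. Of all genes, 37.5% did so. Because each probe set has its own response, levels are compared between arrays and not between genes.

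Versican, the large hyaluronan-binding proteoglycan, separated all 4 groups. Its log2 level was 10.98 and 10.72 in co-cultured MBA-15, 10.11 and 9.10 on the MBA-15 arrays labelled alone, 6.50 and 5.95 in co-cultured DA3, and 4.99 and 4.55 in DA3 alone. No array of a group overlapped the next group in this order, although the MBA-15 arrays labelled alone were 1.01 apart. Biglycan lay at 10.43 and 10.14 in co-cultured MBA-15 and at 10.00 and 10.07 on the MBA-15 arrays labelled alone. It lay at 8.34 and 8.09 in co-cultured DA3 and at 6.19 and 7.41 in DA3 alone. The biglycan groups also kept apart, with the MBA-15 groups only just so.

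Fibronectin, the integrin-binding fibril protein, was at 11.52 and 10.36 in co-cultured MBA-15 and 10.80 and 11.29 on the MBA-15 arrays labelled alone. In DA3 it was at 6.72 and 7.76 alone and at 9.06 and 7.24 in co-culture. The groups of one line overlapped, and every MBA-15 array lay above every DA3 array. Fibronectin replicates were up to 1.82 apart.

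Thrombospondin-2 (Thbs2), a matricellular protein known for restraining vessel growth and for collagen fibril assembly, was at 8.37 and 9.16 in co-cultured MBA-15 and 7.69 and 9.03 on the MBA-15 arrays labelled alone. It was at 4.28 and 5.09 in DA3 alone and 5.97 and 4.55 in co-cultured DA3. Like fibronectin it divided the lines, overlapped between the groups of each line, and had wide replicate gaps, of 0.79 to 1.42. Follistatin-like 1 (Fstl1), a secreted glycoprotein related to Sparc, lay at 9.92 and 9.49 in co-cultured MBA-15 and at 9.46 and 9.06 on the MBA-15 arrays labelled alone. It lay at 6.45 and 6.29 in co-cultured DA3 and at 4.96 and 4.88 in DA3 alone. Fstl1 had the closest DA3 replicates of the 6 measurable genes and kept the same group order as versican and biglycan.

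Sparc, a collagen-binding protein abundant in bone matrix, varied less between the lines than these 5. It was at 11.49 and 11.09 in co-cultured MBA-15, 11.16 and 11.23 on the MBA-15 arrays labelled alone, 10.18 and 10.59 in DA3 alone, and 10.70 and 10.07 in co-cultured DA3. All MBA-15 arrays exceeded all DA3 arrays, by a margin smaller than that of any of the other 5.

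The 4 dim genes stayed in narrow ranges. Decorin was at 4.00 and 4.04 in co-cultured MBA-15, 4.16 and 4.10 on the MBA-15 arrays labelled alone, 3.47 and 3.55 in DA3 alone, and 3.73 and 3.94 in co-cultured DA3. Tenascin-C (Tnc), a large anti-adhesive glycoprotein, was at 3.89 and 3.75, 3.52 and 3.41, 3.31 and 3.43, and 3.60 and 3.77 in that order of groups. Lumican ranged from 3.35 to 3.68 and periostin (Postn), an integrin ligand of periosteum and tumour stroma, from 3.56 to 3.81 over the 8 arrays. At such signals a small difference between groups was not read as presence of the RNA.

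**Figure D1:**
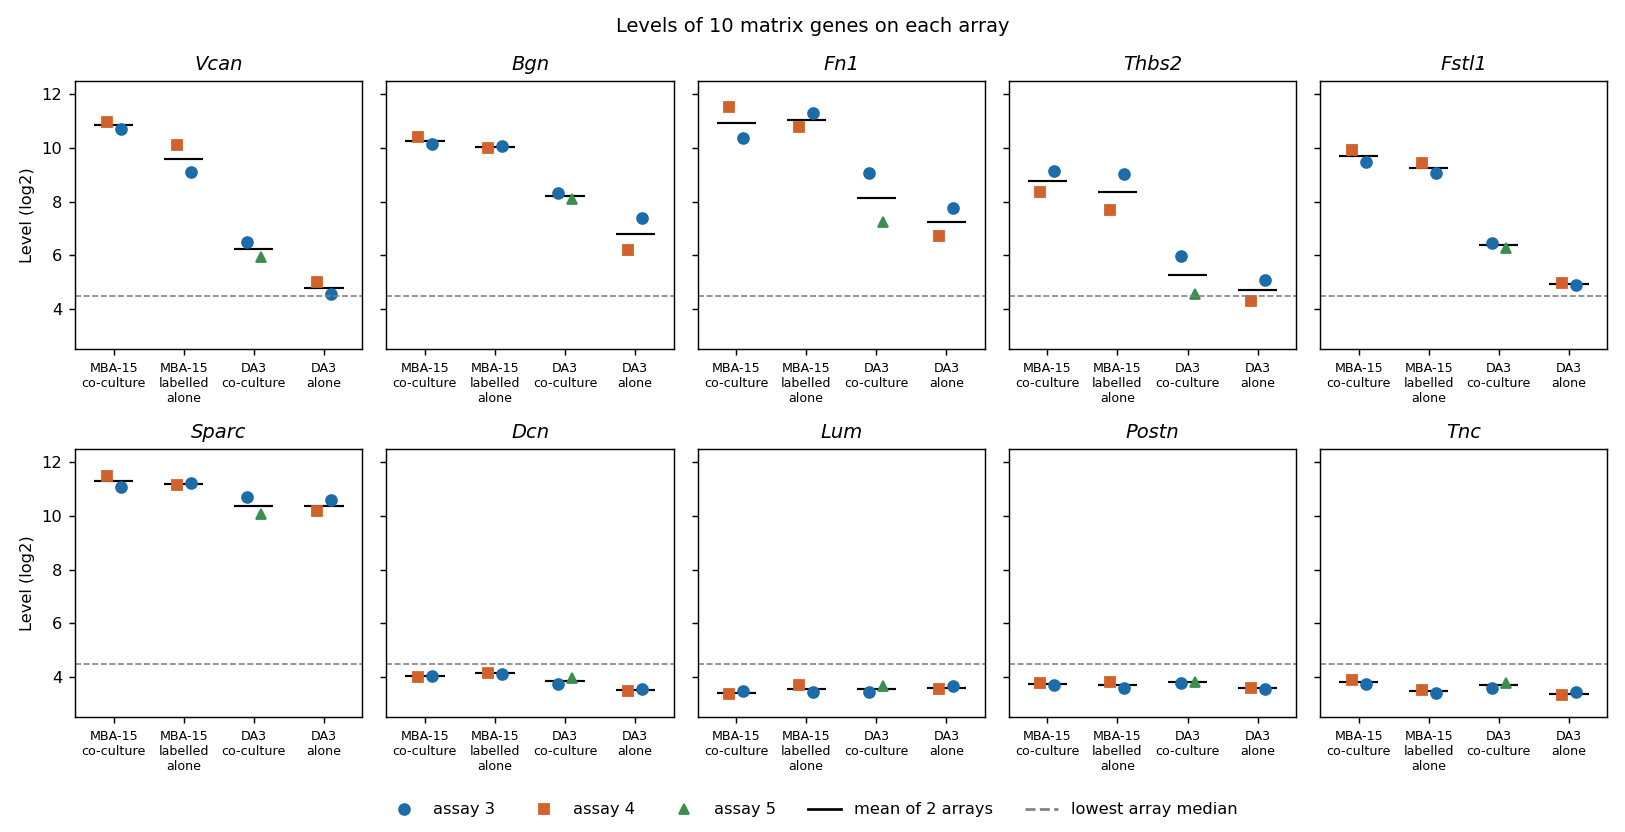
Log2 expression of the 10 genes on each array, 1 panel per gene, with the 4 groups along the x axis, each point 1 array (its shape the assay number), a bar at the group mean and a dashed line at the lowest array median. Vcan, Bgn, Fn1, Thbs2 and Fstl1 are higher on all 4 MBA-15 arrays than on any DA3 array. Sparc is so by a smaller margin, and Dcn, Lum, Postn and Tnc stay below 4.479 throughout.

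The first comparison set the stromal line against the tumour line. Its groups differ in co-culture as well as in line, and the parts of these cannot be told apart. The counts for the lists of related genes below share this limit. In co-cultured MBA-15 against DA3 alone, 6 of 10 were higher by limma at an adjusted p under 0.05 and 0 were lower, where 6.08% of all genes were higher and 6.47% lower. The median log2 difference was 2.19 over the 10 genes and 0.00 over all genes. Without overlap of arrays, 9 of 10 were higher and 1, Lum, was lower, beside 27.2% and 26.6% of all genes. These shares describe the 10 genes and are no test of the set.

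Vcan was higher in co-cultured MBA-15 by 6.08 ± 0.36 (log2, SE, n = 2 against 2), which is 67.7-fold, with a limma adjusted p of 0.00028. Within assays 3 and 4 the difference was 6.17 and 5.99. Its level in DA3 alone was close to the lowest array median, where the signal of a gene cannot be told from background here. Fstl1 was higher by 4.78 ± 0.20, 27.5-fold, with a limma adjusted p of 0.000161, and by 4.61 and 4.96 within the assays. Its levels in DA3 alone, 4.96 and 4.88, were likewise not far above the lowest array median, so the size of its fold is not exact. These 2 differences were many times their standard errors and nearly equal in both assays.

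Bgn was higher by 3.48 ± 0.37, 11.2-fold, with a limma adjusted p of 0.00189, although assay 3 gave 2.72 and assay 4 gave 4.24. Thbs2 was higher by 4.08 ± 0.63 with a limma adjusted p of 0.00801, and by 4.06 and 4.09 within the assays, set against DA3 alone arrays that lay near the lowest array median and, on array 1, below it. Its call was lost when DA3 alone array 1 was left out (adjusted p = 0.0695). Fn1 was higher by 3.70 ± 0.68, 13.0-fold, with a limma adjusted p of 0.0156, and by 2.60 in assay 3 against 4.80 in assay 4. The Fn1 call was lost without co-cultured MBA-15 array 1 (adjusted p = 0.0656), DA3 alone array 1 (0.113) or DA3 alone array 2 (0.0522). Vcan, Bgn and Fstl1 passed in all 17 settings and array sets tried.

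Dcn passed with a difference of 0.51 ± 0.13 and a limma adjusted p of 0.0456. It lay below the lowest array median on every array, and the call was lost in 11 of 16 other settings. Sparc was 0.90 ± 0.26 higher, 1.87-fold, with a 95% interval of 0.28 to 1.52 and a limma adjusted p of 0.0744. Sparc did not pass, and within assays 3 and 4 its difference was 0.50 and 1.31. It did pass when either co-cultured DA3 array was left out of the fit (adjusted p = 0.0384 in both cases). Tnc differed by 0.45 (adjusted p = 0.0783), Postn by 0.17 (0.543) and Lum by -0.19 (0.556), all by limma and none past the threshold.

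**Figure D2:**
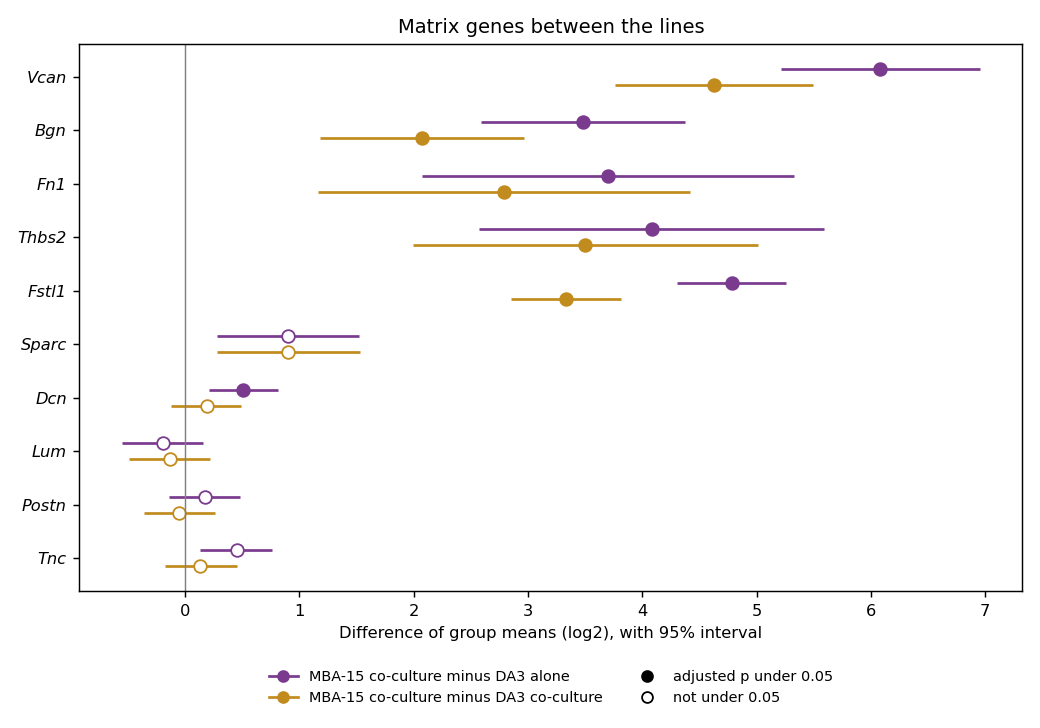
Log2 difference of the 10 genes between the lines, with 95% intervals from limma, for co-cultured MBA-15 against DA3 alone and against co-cultured DA3, filled where the adjusted p was under 0.05. Vcan, Fstl1, Thbs2, Fn1 and Bgn lie well above 0 in both, and Sparc lies at 0.90 in both without passing. Against DA3 alone, the dim genes Dcn and Tnc lie at 0.51 and 0.45, and of these Dcn passed. The other values of the dim genes lie nearer 0.

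The other comparisons of the lines share arrays with the first, so their values are given side by side and are not independent. Against DA3 alone, the MBA-15 arrays labelled alone were higher in 5 of 10 genes, where 2.70% of all genes were higher: Vcan by 4.84, Fstl1 by 4.34, Fn1 by 3.80, Thbs2 by 3.68 and Bgn by 3.24. Of these, the limma adjusted p was 0.0418 for Fn1 and 0.0358 for Thbs2, and both calls were lost when any of the 4 arrays compared was left out, with the replicate number in the fit (0.0652 and 0.0556) and with quantile scaling (0.0561 and 0.0558). The Bgn call was lost without MBA-15 labelled alone array 1 (adjusted p = 0.061).

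Between the co-cultured fractions, the same 5 genes were higher in MBA-15, where 8.28% of all genes were higher. Vcan differed by 4.63 ± 0.36, Thbs2 by 3.50, Fstl1 by 3.33, Fn1 by 2.79 and Bgn by 2.07 ± 0.37 (log2). Within assay 3, the only assay with both fractions, the differences were 4.22, 3.19, 3.03, 1.30 and 1.79. The limma adjusted p of Fn1 was 0.0438, and it became 0.157 with the assay number in the fit, where the difference was 1.94. Its call was lost when any array was left out except array 1 of co-cultured DA3, and stood in 5 of 17 settings in all. The adjusted p of Bgn became 0.0639 in that fit, with a difference of 2.11, and the Bgn call was also lost without co-cultured MBA-15 array 1 (0.0654) or 2 (0.0505) or co-cultured DA3 array 2 (0.0626). Thbs2 lost its call without co-cultured MBA-15 array 2 (0.0766) or co-cultured DA3 array 2 (0.0534).

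RefSeq promoter windows were available for 7 of the 10 genes, each 300 bases around the annotated start, in GRCm38.p6. The 5 measurable genes with a window are shown so that the 4 that passed between the lines can be set beside Sparc. Sparc did not pass, though all its MBA-15 arrays lay above its DA3 arrays. Motifs were searched on both strands and are in capitals. The TATA box was searched as TATAAA, and the GC box, which Sp-family factors bind, as GGGCGG. The CAAT box was searched as CCAAT, and the E-box, which basic helix-loop-helix and Snail-type factors bind, as CACCTG. Sequences run 5′ to 3′ on the strand of the gene, for Vcan at chr13:89742463-89742762 (minus strand), Bgn at chrX:73483351-73483650 (plus), Fstl1 at chr16:37776805-37777104 (plus), Thbs2 at chr17:14694213-14694512 (minus) and Sparc at chr11:55420031-55420330 (minus).
Vcan: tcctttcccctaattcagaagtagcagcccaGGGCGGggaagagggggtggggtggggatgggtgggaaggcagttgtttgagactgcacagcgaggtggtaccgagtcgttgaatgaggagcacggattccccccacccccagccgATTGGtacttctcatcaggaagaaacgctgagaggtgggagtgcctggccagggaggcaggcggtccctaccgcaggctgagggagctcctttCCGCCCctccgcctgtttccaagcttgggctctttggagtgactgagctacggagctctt
Bgn: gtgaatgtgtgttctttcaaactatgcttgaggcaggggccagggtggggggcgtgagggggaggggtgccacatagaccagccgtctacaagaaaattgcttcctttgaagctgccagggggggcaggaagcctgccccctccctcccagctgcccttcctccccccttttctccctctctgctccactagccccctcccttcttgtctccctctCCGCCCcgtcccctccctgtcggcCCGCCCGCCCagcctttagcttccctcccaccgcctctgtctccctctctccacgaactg
Fstl1: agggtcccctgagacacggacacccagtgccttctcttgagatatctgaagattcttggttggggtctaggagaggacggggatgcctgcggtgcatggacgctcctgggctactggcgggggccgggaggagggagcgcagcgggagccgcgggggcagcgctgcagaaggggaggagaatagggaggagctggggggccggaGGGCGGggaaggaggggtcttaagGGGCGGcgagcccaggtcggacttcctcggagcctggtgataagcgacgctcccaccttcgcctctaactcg
Thbs2: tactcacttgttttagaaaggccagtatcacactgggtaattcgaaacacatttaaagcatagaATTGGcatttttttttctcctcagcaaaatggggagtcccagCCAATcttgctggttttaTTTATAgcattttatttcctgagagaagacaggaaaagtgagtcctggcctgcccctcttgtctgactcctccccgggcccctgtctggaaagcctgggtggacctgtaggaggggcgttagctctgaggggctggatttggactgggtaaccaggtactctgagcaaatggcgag
Sparc: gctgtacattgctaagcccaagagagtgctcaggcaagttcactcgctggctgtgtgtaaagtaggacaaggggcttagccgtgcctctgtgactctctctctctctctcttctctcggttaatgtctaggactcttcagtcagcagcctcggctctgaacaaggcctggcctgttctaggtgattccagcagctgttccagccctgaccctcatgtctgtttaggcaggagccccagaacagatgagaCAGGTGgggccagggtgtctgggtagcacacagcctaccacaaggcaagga

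No motif searched stood in every window shown. The Fstl1 window held 21 CpG dinucleotides and 66.7% GC, Vcan 12 and 61.0%, Bgn 9 and 63.7%, Thbs2 4 and 48.3%, and Sparc 4 and 55.3%, where the median of 32851 windows was 7 CpG and 52.7% GC. GC boxes stood in Vcan (2), Bgn (3, of which 2 overlap) and Fstl1 (2), and 35.7% of all windows held at least 1. Thbs2 held 1 TATA box and 2 CAAT boxes, Vcan 1 CAAT box, and Sparc 1 E-box, against 13.6%, 37.4% and 20.2% of all windows. The AP-1 motif TGANTCA stood in none of the windows of the 7 genes and in 7.81% of all windows. These are matches of letters and are not read as binding sites.

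A further comparison asked what co-culture did within the stromal line. In co-cultured MBA-15 against the MBA-15 arrays labelled alone, 0 of 10 genes passed the limma test, where 0.848% of all genes passed in either direction. At an unadjusted p under 0.05 there were 2 of 10, Vcan and Tnc, beside 9.80% of all genes. Arrays did not overlap in 4 genes that were higher (Vcan, Bgn, Tnc and Fstl1) and in 1 that was lower (Dcn), beside 22.3% and 16.1% of all genes. The median log2 difference of the 10 genes was 0.17, and that of all genes 0.04.

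Vcan differed by 1.25 ± 0.36 with a 95% interval of 0.38 to 2.11 (limma adjusted p = 0.274, and 0.0958 to 0.886 over the other settings), and by 1.62 and 0.87 within assays 3 and 4. Fstl1 differed by 0.44 ± 0.20, Thbs2 by 0.40 ± 0.63, Tnc by 0.35 ± 0.13 and Bgn by 0.25 ± 0.37. Sparc differed by 0.09 ± 0.26, with an interval of -0.53 to 0.71. Fn1 differed by -0.11 ± 0.68, with an interval of -1.74 to 1.52 and opposite signs within the assays, -0.93 in assay 3 and 0.72 in assay 4. The interval for Fn1 thus leaves room for changes of several fold in either direction, and the one for Sparc for less than a doubling.

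In the same comparison 15 of 16 epithelial markers were lower in co-cultured MBA-15 by limma, with a median log2 difference of -3.37, and 2 of 15 stromal markers, Zeb1 and Zeb2, were higher, with a median of 0.44. The part of these marker differences in the values of the 10 genes was not tested.

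The reciprocal comparison asked what co-culture did within the tumour line. In co-cultured DA3 against DA3 alone, 0 of 10 genes passed the limma test, where 0.0401% of all genes passed. At an unadjusted p under 0.05 there were 5 of 10 (Vcan, Dcn, Bgn, Tnc and Fstl1), beside 14.9% of all genes. Arrays did not overlap in 6 genes, all higher in co-culture (Vcan, Dcn, Bgn, Postn, Tnc and Fstl1), beside 31.4% of all genes. The median log2 difference was 0.45 over the 10 genes and 0.04 over all genes, and 3 of the 6 were dim on every array.

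Vcan differed by 1.46 ± 0.36 (95% interval 0.59 to 2.32, limma adjusted p = 0.205, and 0.116 to 0.668 over the other settings). Fstl1 differed by 1.45 ± 0.20 (0.97 to 1.93, adjusted p = 0.0906, and 0.0538 to 0.632 over the other settings). Bgn differed by 1.41 ± 0.37 (0.53 to 2.30, adjusted p = 0.214, and 0.132 to 0.556 over the other settings). These 3 intervals excluded 0 before adjustment over all genes and did not pass after it. Within assay 3 the differences were 1.95, 1.57 and 0.93. Fn1 differed by 0.91 ± 0.68 and Thbs2 by 0.57 ± 0.63, both with overlapping arrays. Sparc gave a difference of 0.00 ± 0.26, with an interval of -0.62 to 0.62. Dcn differed by 0.33, Tnc by 0.32, Postn by 0.22 and Lum by -0.06, all at dim signal.

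Beside these values, the 15 stromal markers had a median log2 difference of 0.76 in the same comparison, with 0 passing the limma test, and their mean level was 6.14 and 5.65 against 5.05 and 5.07. The mean of 3 Y-linked genes was 3.97 and 4.05 in co-cultured DA3 and 3.70 and 3.71 in DA3 alone. It was 6.62 and 6.67 in co-cultured MBA-15. All 3 lay below the lowest array median on every DA3 array, where a small difference was not read as presence of the RNA. The mean of 6 endothelial markers, dim on all 8 arrays, was 3.74 and 3.77 in co-cultured DA3 and 3.52 and 3.55 in DA3 alone. Whether stromal RNA in the EpCAM-bearing fraction had a part in the values of the 10 genes was not tested. For Fn1 and Thbs2, array 2 of co-cultured DA3 lay between the DA3 alone arrays, and only array 1 lay above both.

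**Figure D3:**
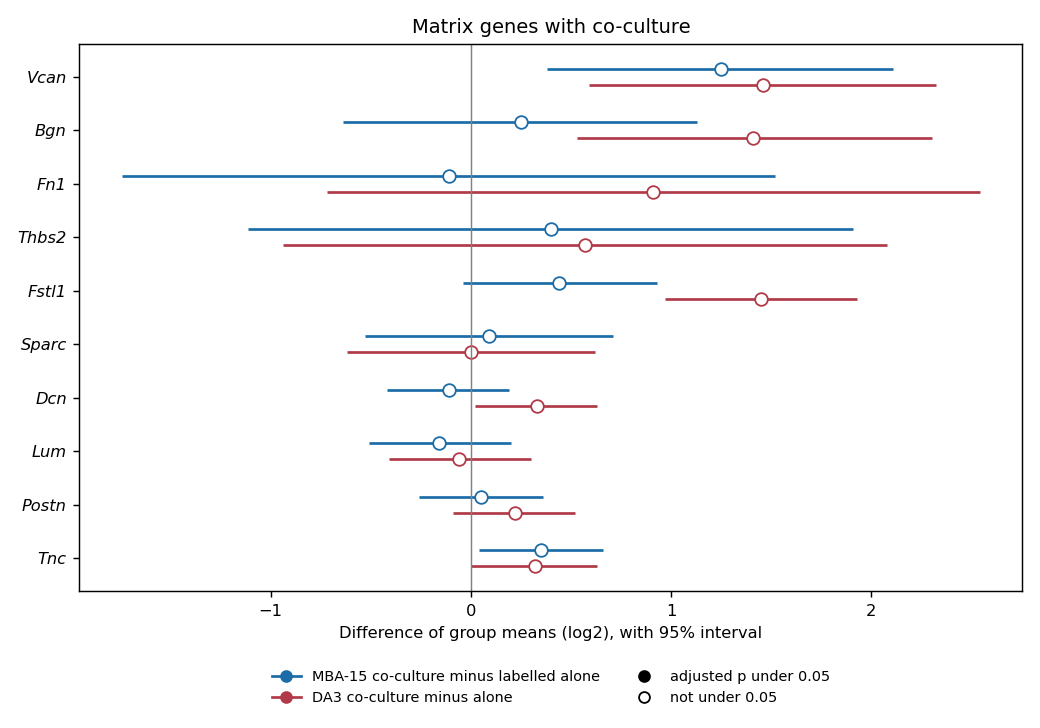
Log2 co-culture difference of the 10 genes within MBA-15 and within DA3, with 95% intervals from limma before adjustment over genes. In DA3 the intervals of Vcan, Fstl1 and Bgn lie above 0 at 1.46, 1.45 and 1.41, in MBA-15 that of Vcan does at 1.25, those of the dim genes Dcn (DA3) and Tnc (both lines) do by little, and none passed the test after adjustment.

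The co-culture differences of the lines were compared directly. By limma, 0 of 10 genes had a difference of changes past the threshold, where 0.0602% of all genes did, and 2 of 10 (Dcn and Fstl1) were at an unadjusted p under 0.05, beside 6.32% of all genes. The MBA-15 difference minus the DA3 difference was -1.01 ± 0.28 for Fstl1 (limma adjusted p = 0.528), -1.17 ± 0.53 for Bgn (0.817) and -0.21 ± 0.51 for Vcan, with an interval of -1.44 to 1.02. No co-culture effect on these genes was thereby shown to differ between the lines. This comparison includes the MBA-15 arrays labelled alone.

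The rest of the matrix and its handling were described from 6 lists of related genes, 101 genes in all, of which 36 were dim on all 8 arrays. In co-cultured MBA-15 against DA3 alone, 18 were higher and 5 lower by limma, where 6.08% of all genes were higher and 6.47% lower. The counts of each list below are to be read against these shares. All 23 had the same sign within assays 3 and 4. Those differences come from the same arrays as the calls, so the shared sign is no separate check. In neither co-culture comparison did any of the 101 pass. At an unadjusted p under 0.05 there were 10 (9.90%) in MBA-15 and 18 (17.8%) in DA3, beside 9.80% and 14.9% of all genes.

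Of 19 other matricellular genes, 3 were higher and 2 lower in co-cultured MBA-15 than in DA3 alone, with a median log2 difference of 0.11. Ccn5, a member of the CCN family that lacks the last domain of the others, was at 8.12 and 8.05 against 4.82 and 4.98, a difference of 3.19 ± 0.21 (limma adjusted p = 0.000353). Ccn2 (connective tissue growth factor) went the other way, at 6.51 and 5.78 against 8.53 and 9.53, a difference of -2.89 ± 0.43 (adjusted p = 0.00667). Smoc2 was higher by 2.61 and its relative Smoc1 lower by -1.80 (adjusted p 0.0127 and 0.00214), so these related calcium-binding proteins of the Sparc family had opposite signs. Tgfbi was higher by 3.32 ± 0.67 (adjusted p = 0.0227), with co-cultured MBA-15 arrays 1.58 apart. Smoc2 and Tgfbi in DA3 alone and Smoc1 in co-cultured MBA-15 lay below the lowest array median, so the size of their differences is not exact. The calls of Smoc2 and Tgfbi were lost when co-cultured MBA-15 array 1 or either DA3 alone array was left out, while Ccn5, Ccn2 and Smoc1 passed whichever of the 8 arrays was left out.

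The largest differences in this list within the lines did not pass. Ccn2 was at 8.04 and 8.81 on the MBA-15 arrays labelled alone, a co-culture difference of -2.28 ± 0.43 (limma adjusted p = 0.0933), beside the higher epithelial markers of those arrays and the high Ccn2 of DA3, whose part in it was not tested. In DA3, Ccn4 was at 4.89 and 4.26 in co-culture and 6.41 and 6.33 alone, a difference of -1.79 ± 0.23 (adjusted p = 0.0844), and was at 6.57 or above on every MBA-15 array. Thbs1, the close relative of Thbs2, was at 9.93 and 9.36 against 10.79 and 11.18, a difference of -1.34 ± 0.34 (adjusted p = 0.209). The co-cultured DA3 arrays were the lowest of the 8 for both genes, and Ccn4 on array 2 of co-cultured DA3 lay below the lowest array median.

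Among 12 other small leucine-rich proteoglycans, 2 were higher in co-cultured MBA-15 than in DA3 alone and 0 lower. Osteoglycin (Ogn) was at 8.35 and 8.93 against 4.25 and 4.69, a difference of 4.17 ± 0.27 (limma adjusted p = 0.000314). Osteomodulin (Omd), a keratan sulfate proteoglycan of bone, was at 5.49 and 5.97 against 3.66 and 3.47, a difference of 2.16 ± 0.18 (adjusted p = 0.000743). In the RefSeq order of protein-coding genes, Ecm2, Aspn, Omd and Ogn are neighbours, and Ecm2 and Aspn were dim on all arrays. Ogn lay below the lowest array median on DA3 alone array 1, and Omd was dim on the 4 DA3 arrays. The size of both differences is therefore not exact. Dcn, Lum, Kera and Epyc are likewise neighbours, and all 4 were dim on all 8 arrays. Of 9 large, basement membrane or other secreted proteoglycans 0 passed, and 7 were dim, among them Hapln1, which encodes a protein that links versican to hyaluronan and lies beside Vcan.

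The enzymes that build chondroitin and dermatan sulfate chains and hyaluronan gave 8 higher and 1 lower of 26, with a median log2 difference of 0.26 beside 0.00 for all genes. Csgalnact1, which starts chondroitin chains, was at 5.38 and 5.48 against 3.59 and 3.66, a difference of 1.81 ± 0.14 (limma adjusted p = 0.000561). Its DA3 signal, like that of Chst15, Chst11 and Ust in DA3 alone, lay below the lowest array median, so the size of these differences is not exact. The chondroitin sulfotransferases Chst15 and Chst11 were higher by 2.45 ± 0.21 and 2.31 ± 0.35 (adjusted p 0.000767 and 0.00719), and Ust, which sulfates uronic acid, by 1.82. Ugdh (1.18), Dse (1.09), Chpf2 (0.91) and Xylt1 (0.49) also passed, and B3gat3, which adds the last sugar of the linker between core protein and chain, was lower by -1.16 (adjusted p = 0.00793). Csgalnact1, Chst15 and Ust passed whichever array was left out, Xylt1, which lay below the lowest array median on 7 of 8 arrays, passed in none of these 8 fits, and the other calls were lost without at least 1 array. The hyaluronan synthase Has2 was at 8.27 and 7.85 in co-cultured DA3, 7.45 and 6.73 in DA3 alone and 6.50 and 5.79 in co-cultured MBA-15. It was thus lower in MBA-15 than in DA3 between the co-cultured fractions (-1.92 ± 0.34, limma adjusted p = 0.0144), a call lost without co-cultured MBA-15 array 2 or co-cultured DA3 array 1, and its co-culture difference in DA3, 0.97 ± 0.34, did not pass (adjusted p = 0.287).

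Of 20 receptors and partners, 2 were higher in co-cultured MBA-15 than in DA3 alone and 2 lower. Itga5, the alpha chain of the classical fibronectin receptor, was at 8.76 and 8.55 against 5.45 and 5.50, a difference of 3.18 ± 0.31 (limma adjusted p = 0.00136) that passed whichever array was left out. Tlr4, a receptor reported to respond to biglycan, was higher by 1.78 (adjusted p = 0.0122). The hyaluronan receptor Cd44 was lower by -0.89 and the cell-surface proteoglycan Sdc1 by -1.08 (adjusted p 0.0207 and 0.0189). The call of Cd44 was lost when any of the 4 arrays compared was left out, that of Sdc1 when either DA3 alone array or co-cultured MBA-15 array 2 was, and that of Tlr4 when either DA3 alone array was.

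In DA3, Cd44 was at 9.84 and 9.40 in co-culture and 8.79 and 8.85 alone, above every MBA-15 array, and this difference of 0.80 ± 0.18 did not pass (limma adjusted p = 0.183). Integrin beta 5 (Itgb5) was at 7.50 and 7.44 in co-cultured DA3 and 8.95 and 9.47 alone, a difference of -1.74 ± 0.33 (adjusted p = 0.147). Cd47, the thrombospondin receptor, was at 7.89 and 8.16 against 9.32 and 9.29, a difference of -1.29 ± 0.32 (adjusted p = 0.207). For both, the co-cultured DA3 arrays were again the lowest of the 8.

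Among 15 proteases that cut these matrix proteins, 3 were higher in co-cultured MBA-15 than in DA3 alone and 0 lower. The gelatinase Mmp2 was at 8.57 and 8.54 against 4.42 and 4.77, a difference of 3.96 ± 0.16 (limma adjusted p = 0.000161). Its signal on DA3 alone array 1 lay below the lowest array median, so the size of the difference is not exact. Mmp3 was higher by 2.21 (adjusted p = 0.0402) and Adamts5, a protease that cleaves versican and aggrecan, by 1.86 (0.0295), both against dim signal in DA3 alone. Mmp2 passed whichever array was left out, Mmp3 in 1 of the 8 fits, and Adamts5 lost its call when any array of the groups compared was left out.

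**Figure D4:**
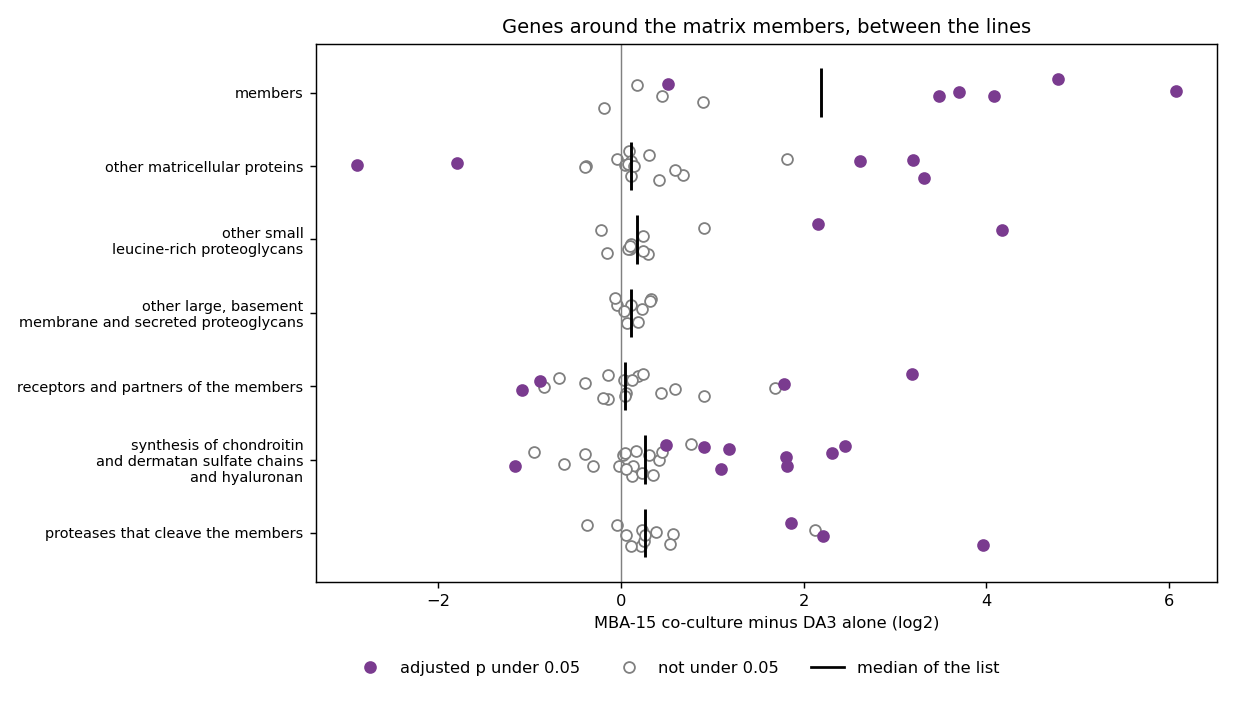
Log2 difference between co-cultured MBA-15 and DA3 alone for the 10 genes (top row, members) and every measured gene of the 6 lists, each point 1 gene, filled where limma's adjusted p was under 0.05, with a bar at the median. Most genes of each list lie near 0, with Ogn (4.17), Mmp2 (3.96), Tgfbi (3.32), Ccn5 (3.19) and Itga5 (3.18) far to the right and Ccn2 (-2.89) far to the left.

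The genes whose centred log2 profile over the 8 arrays came closest to each of the 10 were found by the root mean square difference. For Vcan they were Trim30a (0.42) and Nrn1 (0.53), for Bgn Colec12 (0.36) and Rcn3 (0.38), and for Fn1 Lox (0.39) and Mrc2 (0.40). For Thbs2 they were Pdgfra (0.26) and Cd34 (0.35), for Fstl1 Nt5dc2 (0.15) and Lgals3bp (0.28), and for Sparc Adamts7 (0.09) and Cul7 (0.10). The nearest of the other 9 members was at 0.57 for Vcan (Fstl1) and at 0.60 for Bgn (Fn1). Members were sought among far fewer genes, so these larger distances do not show whether the members share a profile. For Dcn, Lum, Postn and Tnc the nearest genes were 0.03 to 0.09 away, as flat profiles lie near many others.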

How the data were processed

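The authors deposited 1 log2 expression value per array and probe set. The submitters' processing notes name RMA and Partek 6.5. That the scale is log2 was read from the range of the values and the RMA named there, and the parameters were not given in the sources used here. The normalization between arrays makes every change relative to the other genes of an array. The platform annotation gave 1 gene symbol for 21789 of 35556 probe sets and several for 1621, and 12146 were unnamed here. Each of the 19938 genes was represented by its probe set of highest mean, without a filter. Array medians were 4.479 to 4.642, and any 2 arrays shared at most 2 identical values. The number of arrays, 2 in each of 4 groups, limits the precision.

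All 8 arrays were fitted by lmFit and eBayes of limma 3.58.1 (R 4.3.3, 4 residual and 2.6 prior degrees of freedom), with two-sided tests, Benjamini-Hochberg adjustment over all genes and a threshold of 0.05. "Passed" refers to that threshold. The script was tested on simulated data. Groups came from the titles, and assay numbers from the descriptions. The 10 genes were named in every comparison. From each list, the genes past the threshold and otherwise up to 4 with the largest change could be named, and 2 nearest profiles were named for each gene. The genes, lists and this rule were chosen with earlier results of these data known. Alternatives were another probe set rule, a filter on dim genes, median and quantile scaling, another variance prior, fewer arrays in the fit, blocks for replicate and assay number, each array left out and, chosen after seeing the data, a fit without the MBA-15 arrays labelled alone. Promoter windows came from RefSeq (GRCm38.p6).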

Additional observations from a re-analysis of the deposited data

Results flagged for a closer look

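The co-culture difference of Dcn had opposite signs in the lines, with no overlap of arrays in either: -0.11 in MBA-15 and 0.33 in DA3 (log2). The difference between them was -0.44 ± 0.18 and did not pass (limma adjusted p = 0.768). Dcn lay below the lowest array median on all 8 arrays.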

How the results depend on the processing

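No result reversed its sign after being called. Over single settings and left-out arrays, 904 member changes kept their side of the threshold, 46 lost a call and 6 gained one. The sign was compared only where a call was made. Uncalled changes could change sign, as Fn1 did in co-cultured MBA-15 against the MBA-15 arrays labelled alone (-0.68 to 0.47). For co-cultured DA3 against DA3 alone, 8 genes passed. This became 56 with the filter on dim genes, 1 with quantile scaling, 134 with the trended and robust prior, 0 with only the groups compared, 0 with the assay block and 2 without the MBA-15 arrays labelled alone. For the difference of changes, 12 genes became 40 with the filter, 25 with quantile scaling, 44 with the trended prior and 0 with the assay block. For co-cultured MBA-15 against the MBA-15 arrays labelled alone, 169 genes became 334 with the trended prior and 28 with only the groups compared. Between the co-cultured fractions, 2545 genes became 1123 with only the groups compared, and the 5 members called became 3 with the assay block. The cause was not tested.

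The replicate numbers shared no deviation common to all groups (correlations of -0.41 to 0.31 between groups), so they were not taken as pairs. With the replicate block, the members called for the MBA-15 arrays labelled alone against DA3 alone went from 5 to 3 (Fn1 and Thbs2 lost their calls), the genes called for co-cultured DA3 from 8 to 3 and those for the difference of changes from 12 to 0.

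With each array left out in turn, 3 to 7 members passed for co-cultured MBA-15 against DA3 alone, 2 to 5 for the MBA-15 arrays labelled alone against DA3 alone, 2 to 6 between the co-cultured fractions, and 0 within either line and for the difference of changes. The genes called ranged from 995 to 2870, 136 to 627 and 1642 to 2229 in the first 3, from 13 to 198 within MBA-15, 0 to 3 within DA3 and 0 to 8 for the difference. Without the MBA-15 arrays labelled alone, 5 members passed against DA3 alone (Dcn lost its call, adjusted p = 0.0745) and 4 between the co-cultured fractions (Fn1 lost its call, 0.0748).

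Median scaling moved the median of all genes to -0.11 for co-cultured MBA-15 against DA3 alone and -0.13 for the MBA-15 arrays labelled alone. The share of calls that were higher went from 48.5% to 38.3% in the first with median scaling, and from 64.9% to 52.1% between the co-cultured fractions with quantile scaling. Within DA3, quantile scaling left 1 higher call in place of 2 higher and 6 lower. The filter gave no value for Dcn, Lum, Postn and Tnc, and the difference of changes uses all arrays and had no fit on fewer groups.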
